A study of Mus musculus with 7 samples.

Results

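Open chromatin was described in the 4 clusters of the Hox gene family in mouse, as the ATAC-seq peaks that lay inside 4 windows of the mm9 build. The windows were HoxA on chr6:52090000-52230000, HoxB on chr11:96040000-96240000, HoxC on chr15:102740000-102880000 and HoxD on chr2:74490000-74620000, together 610 kb. They held 421 of the 644207 peaks in 7 peak lists, 62 in 3 lists from female cells and 359 in 4 lists from male cells. ATAC-seq marks open chromatin by the places where the Tn5 transposase inserts sequencing adapters. The members were taken by their position in these windows, which were chosen with earlier results of these data known.

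Each of the 7 groups was 1 sample. The female groups came from a 129S1 x Cast:EiJ F1 cross: embryonic stem cells (mESC, line F1216, grown in serum with LIF), wild-type neural progenitor cells (NPC, line C2) and NPC of the deltaFT genotype (line sgdgb2), both NPC lines grown in N2/B27 with FGF and EGF. The male groups were J1 stem cells with an inducible Xist on the X chromosome (TXY), either intact (TXY WT) or with the RepA element of Xist deleted (TXY deltaRepA), each untreated (no dox) or given 2 ug/mL doxycycline for 48 hours (plus dox). The untreated male cells carry the inducible allele too. Every group is a single line, and the labels do not describe the deltaFT genotype further. The source label of the mESC sample names neural progenitors, and the descriptions of both plus-dox samples name a no-dox file. The titles were followed in both cases. No annotation of the mm9 build was used here, so peaks were not given to genes and the labelled cell types were not checked against marker genes.

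Hox genes encode homeodomain transcription factors that give cells their position along the head-to-tail axis. They lie in clusters in which the order of the genes follows the order in which they are used along the body, from paralogue group 1 at the anterior end to group 13 at the posterior end. In stem cells the clusters are classic targets of Polycomb repression, and retinoic acid is known to activate them from the anterior end. The RefSeq table orders 11 Hox genes in HoxA, 10 in HoxB, 9 in HoxC and 9 in HoxD. Group 1 comes first along the chromosome in HoxA, while group 13 comes first in the other 3 clusters, so positions are given below as the distance from the window edge nearer to group 13.

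Promoter sequences show the kind of DNA these windows hold. They were read from RefSeq promoters of GRCm38.p6, a later build than that of the peaks, so no peak was placed on them. Of the 39 Hox genes, 22 had an entry, with 24 promoters of 300 bases. These held a median of 14.5 CG dinucleotides (range 4 to 45), against a median of 7 over all 32851 promoters of the table. The letters TATAAA, searched on both strands, were found in 16.7% of the Hox promoters and in 13.6% of all promoters. Below are the 250 bases before the start of a group 13 gene of HoxA and of HoxD, which pattern limb and tail, and of the central genes Hoxb4 and Hoxc4, with every CG in capitals. They held 35 CG in Hoxa13, 31 in Hoxd13, 14 in Hoxb4 and 8 in Hoxc4, in 250 bases and not the 300 counted above. In the GRCm38.p6 build they lie at chr6:52260881-52261130 (minus strand), chr2:74667975-74668224, chr11:96318017-96318266 and chr15:103034145-103034394 (plus strand).
Hoxa13: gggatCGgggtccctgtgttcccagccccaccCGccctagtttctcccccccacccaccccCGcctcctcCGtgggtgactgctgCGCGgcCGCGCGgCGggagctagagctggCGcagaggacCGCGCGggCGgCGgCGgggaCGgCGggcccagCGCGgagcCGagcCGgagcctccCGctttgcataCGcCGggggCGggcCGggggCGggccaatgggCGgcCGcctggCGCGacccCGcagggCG
Hoxd13: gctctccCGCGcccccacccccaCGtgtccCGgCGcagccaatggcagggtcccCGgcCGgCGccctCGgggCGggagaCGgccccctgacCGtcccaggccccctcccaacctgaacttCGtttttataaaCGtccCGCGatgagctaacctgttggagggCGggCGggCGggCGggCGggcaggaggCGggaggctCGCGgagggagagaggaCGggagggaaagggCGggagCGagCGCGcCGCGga
Hoxb4: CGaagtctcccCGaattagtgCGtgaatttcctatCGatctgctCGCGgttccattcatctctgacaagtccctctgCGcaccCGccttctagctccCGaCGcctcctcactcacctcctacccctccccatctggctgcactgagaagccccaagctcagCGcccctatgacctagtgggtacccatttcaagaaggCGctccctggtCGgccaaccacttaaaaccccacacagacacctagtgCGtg
Hoxc4: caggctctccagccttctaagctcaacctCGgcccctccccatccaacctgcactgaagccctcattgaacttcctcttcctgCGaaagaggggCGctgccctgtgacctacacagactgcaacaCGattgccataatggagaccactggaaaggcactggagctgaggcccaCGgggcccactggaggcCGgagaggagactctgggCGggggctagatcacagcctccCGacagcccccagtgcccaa

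The female lists held autosomal peaks that were reproducible between 2 libraries of a line by the irreproducible discovery rate (IDR lists), with 27538 peaks and 6176798 reads in them for mESC, 39692 and 10724324 for wild-type NPC, and 36036 and 10845382 for deltaFT NPC. The male lists were made from merged libraries, held 123996 to 140048 autosomal peaks and carry no read counts and no replicate check. With 1 sample in a group, groups are compared without p-values. The intervals below are 95% intervals, exact Poisson for counts and exact Clopper-Pearson for shares. They cover counting error only, as the reads carry no molecular identifiers and may repeat the same molecule. The same measure over all autosomal peaks is given as the background.

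Few Hox peaks were called in female stem cells and wild-type NPC, and more in deltaFT NPC. The mESC list held 4 peaks in HoxA, 2 in HoxB, 4 in HoxC and 3 in HoxD. The wild-type NPC list held 7, 5, 2 and 3 in the same order, and the deltaFT list 8, 10, 4 and 10. Per 10000 autosomal peaks of the same list mESC had 4.72 (2.51 to 8.07), wild-type NPC had 4.28 (2.49 to 6.86) and deltaFT NPC had 8.88 (6.07 to 12.5). The library lists gave the same order of the NPC lines, with 5.37 and 5.74 in the libraries of wild type and 7.92 and 8.85 in those of deltaFT. The libraries of mESC gave 5.77 and 6.72. Both deltaFT libraries thus lay above all 4 libraries of the other lines, while the intervals of the IDR lists overlapped. Over HoxA, HoxC and HoxD alone, the deltaFT libraries gave 5.40 and 5.85. Those of mESC gave 4.50 and 5.63, and those of wild type 3.74 and 3.93. Without HoxB, the lower deltaFT library therefore lay under the higher mESC one.

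The lists of the male stem cells split by genotype, each of which was a separate line, and not by treatment. TXY WT held 127 Hox peaks without dox and 107 with dox, and TXY deltaRepA held 65 and 60. Per 10000 autosomal peaks this was 9.24 (7.71 to 11) and 8.63 (7.07 to 10.4) in WT and 5.14 (3.97 to 6.55) and 4.28 (3.27 to 5.51) in deltaRepA. The intervals of the 2 genotypes did not overlap in either treatment, and those of the 2 treatments overlapped in both genotypes. Peaks covered 10.6% and 9.70% of the windows in WT and 4.53% and 4.18% in deltaRepA. The male lists are several times longer than the female ones, and the covered share in those was 0.782% in mESC, 0.908% in wild-type NPC and 1.70% in deltaFT NPC.

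**Figure D1:**
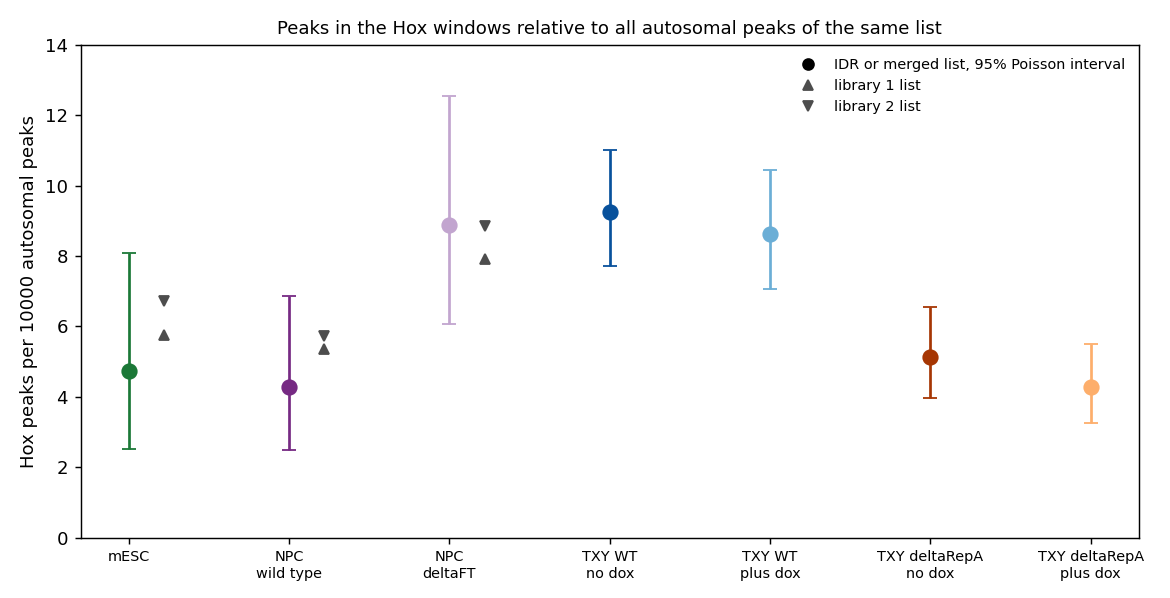
Hox peaks per 10000 autosomal peaks (vertical axis) in the 7 lists (horizontal axis). Circles are IDR or merged lists with 95% Poisson intervals and triangles are the library lists of the female lines. DeltaFT NPC at 8.88 and the TXY WT lists at 9.24 and 8.63 lie above the other 4 lists, which lie between 4.28 and 5.14.

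In all 7 lists the windows held more peaks per 150 kb than the median of 16471 autosomal intervals of that length, and in 4 of the 7 more than their 90th percentile. TXY WT held 31.2 without dox (median 7, 90th percentile 17) and 26.3 with dox (7 and 14). TXY deltaRepA held 16.0 without dox (7 and 15) and 14.8 with dox (8 and 15). The IDR lists held 7.87 in deltaFT NPC (1 and 6), 4.18 in wild-type NPC (2 and 6) and 3.20 in mESC (1 and 5). Gene density was not matched in these intervals. Over the 4 clusters the IDR peaks had fewer reads than was usual for their lists, with a median of 106 reads in mESC (all autosomal peaks, 152), 86 in wild-type NPC (169) and 119.5 in deltaFT NPC (191). The 10 HoxB peaks of deltaFT NPC were an exception, with a median of 201 reads (range 120 to 484).

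Joined over the 7 lists, the Hox peaks formed 142 sites, 33 in HoxA, 46 in HoxB, 29 in HoxC and 34 in HoxD. Of these, 37 (26.1%) were in 1 list only, against 46.2% of all 257513 autosomal sites, and 2 (1.41%) were in all 7 lists, against 4.19%. Both sites found in all 7 lists lay in HoxA. The first, chr6:52108085-52109275, lay 121 kb from the group 13 edge, on the anterior side, and held 245 reads in mESC, 170 in wild-type NPC and 435 in deltaFT NPC. The other, chr6:52171378-52172188, lay 58.2 kb from that edge and held 88, 274 and 111 reads. Per 1000000 reads in autosomal peaks this was 39.7, 15.9 and 40.1 at the first site and 14.2, 25.5 and 10.2 at the other. At this scale mESC and deltaFT NPC lay close together at the anterior site, above wild-type NPC, and wild-type NPC was the highest at the central one.

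Another 9 sites were in 6 lists, 5 of them in HoxD, 2 in HoxC and 1 each in HoxA and HoxB. The site chr15:102750748-102752705, 11.7 kb from the group 13 edge of HoxC, held the highest-ranked Hox peak of every male list, with ranks by the authors' q value from 2325 to 3423. Its authors' fold over local background was 9.45 and 10.9 in the WT lists and 12.4 and 12.0 in the deltaRepA lists. This site was also the strongest Hox site of mESC, with 394 reads in 2 peaks, and held 74 reads in wild-type NPC and no deltaFT IDR peak, though both deltaFT library lists had a peak there. The next by rank in both WT lists was chr11:96051314-96052021, 11.7 kb from the group 13 edge of HoxB, which held 90 reads in mESC and no NPC IDR peak. In HoxD the highest-ranked male peaks lay at chr2:74519630-74520592 (TXY WT plus dox) and chr2:74600686-74601706 (TXY WT no dox), and among the IDR lists only that of deltaFT NPC had a peak at the latter.

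The position of the IDR sites was counted in each female line. Of the 12 mESC sites, 9 lay on the group 13 side of the window's midpoint, and each cluster had a mESC site within 19.03 kb of its group 13 edge. Of the 16 wild-type NPC sites, 11 lay on that side, and of the 29 deltaFT sites, 14 did. Over all 142 sites it was 65. In HoxB the IDR sites of both NPC lines began 83.02 kb from the group 13 edge, whereas mESC had a site at 11.7 kb. The NPC library lists held HoxB peaks nearer that edge, at 15.5 and 24.87 kb in deltaFT and at 72.42 kb in wild type. These are counts of few sites in single lines and were not tested.

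**Figure D2:**
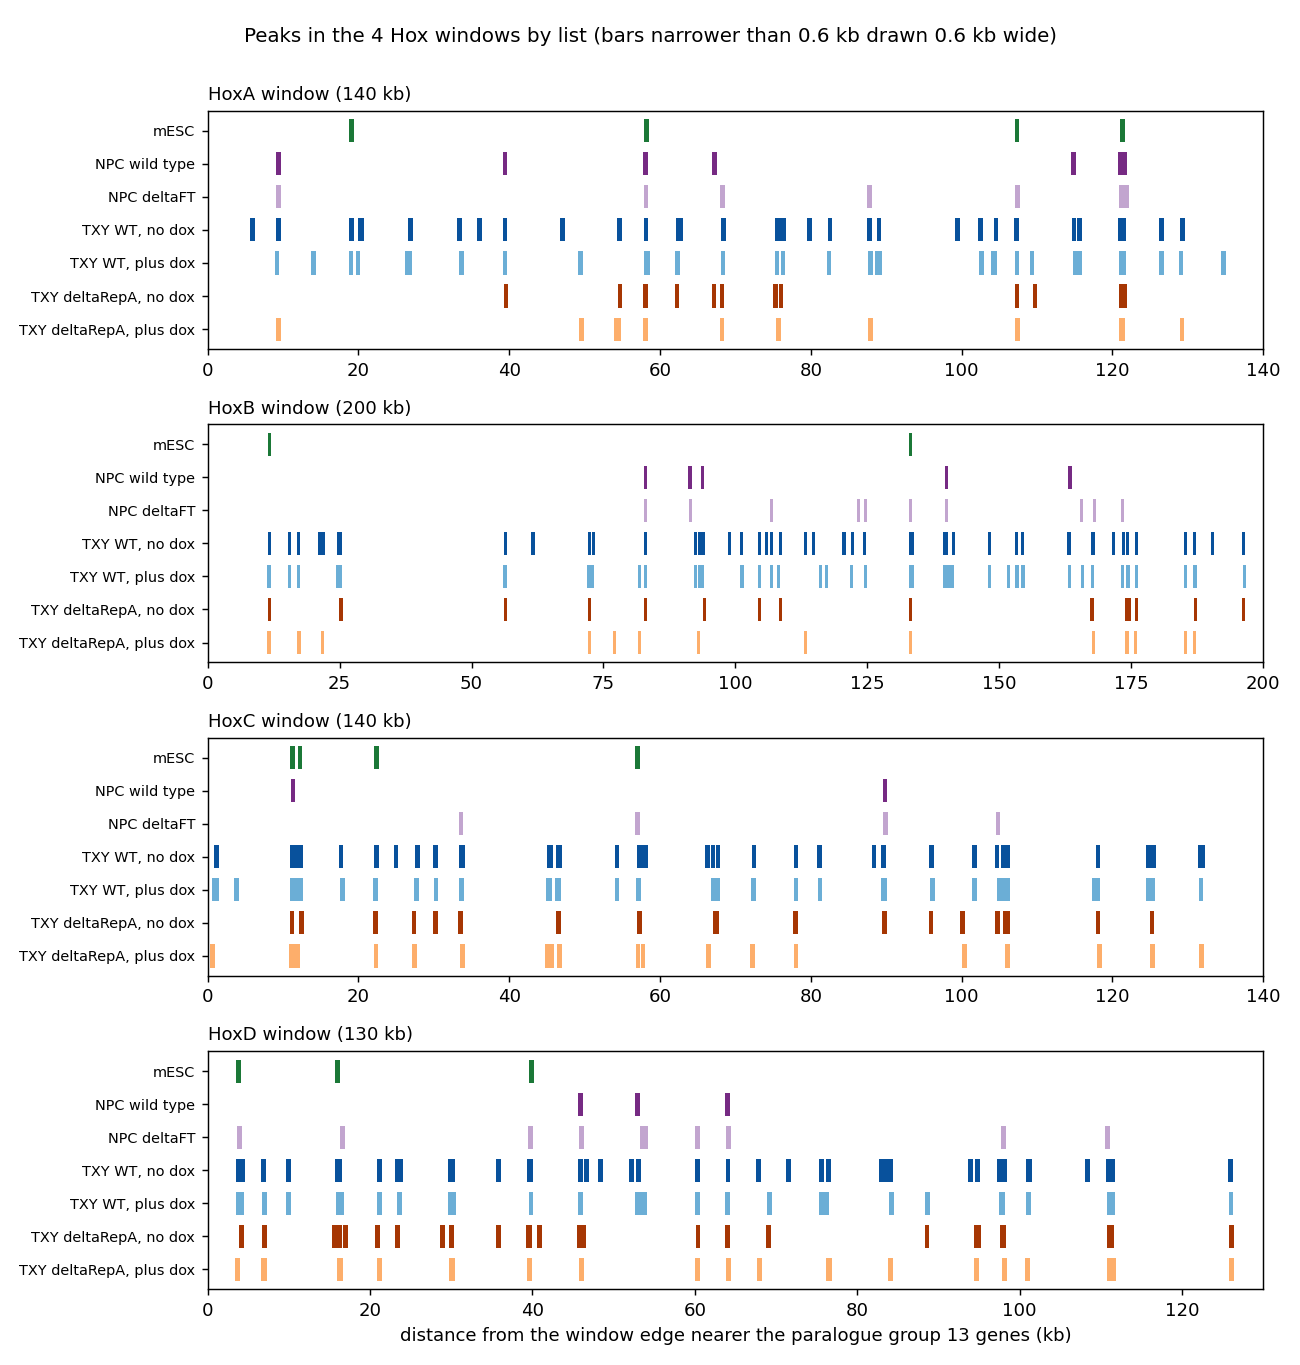
Peaks of the 7 lists (rows) in the 4 windows, by the distance in kb from the window edge nearer to the paralogue group 13 genes (horizontal axis). Bars are peaks. HoxA and HoxB rows of TXY WT (26 to 40 peaks) are visibly fuller than those of TXY deltaRepA (10 to 15), and the HoxC peak near 11 kb recurs in all lists but deltaFT NPC.

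The first comparison set stem cells of the female cross against its wild-type neural progenitors, to find the Hox sites that differ. Of the 13 mESC peaks, 10 had no overlapping peak in the wild-type NPC list, where 53.7% of all autosomal mESC peaks had none. Of the 17 NPC peaks, 13 had no mESC peak, against 68.3% over the autosomes. When the library lists of the other line were searched too, 7 mESC peaks (background 41.1%) and 6 NPC peaks (background 52.5%) were still without a partner. The counts are too small to set the Hox windows apart from the autosomes: the share of mESC peaks found again was 23.1% (5.04% to 53.8%), an interval that holds the autosomal 46.3%. The side of the background also changed with the list: between the first libraries of each line 46.3% of mESC Hox peaks were found in wild-type NPC (autosomes 36.2%) and 46.5% in the reverse direction (30.96%), and between the second libraries 37.2% (41.4%) and 29.6% (27.8%).

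Against the deltaFT NPC list, 6 of the 13 mESC peaks (background 51.9%) and 24 of the 32 deltaFT peaks (63.8%) had no partner.

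The 7 mESC peaks without any wild-type NPC partner were spread over the clusters, 2 in HoxA, 1 in HoxB, 2 in HoxC and 2 in HoxD. The HoxC peaks at chr15:102762265-102762542 and chr15:102752100-102752435 had 137 and 126 reads. The HoxD peak at chr2:74493612-74494094, 3.85 kb from the group 13 edge, had 130. Among the 6 NPC peaks without any mESC partner, the most reads were 154 at chr2:74535663-74536219 in HoxD and 130 at chr6:52162632-52162935 in HoxA. The HoxA peak at chr6:52220483-52220771, 9.37 kb from the group 13 edge, had 87 reads in wild-type NPC and 80 at the matching deltaFT peak. Both lines of progenitors thus had a site there that the mESC lists lacked. The male stem cells did have a peak at this site, in TXY WT without and with dox and in TXY deltaRepA with dox.

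Read density, as reads per kb per 1000000 reads in autosomal peaks, could be compared at 3 matched peaks. At chr15:102751064-102751487 in HoxC it was 102 in mESC (268 reads) and 19.3 in wild-type NPC (74 reads), a log2 ratio of -2.40. At chr6:52108270-52109025 in HoxA, where 2 NPC peaks overlap the mESC one, the larger overlap gave 52.5 and 31.8, a log2 ratio of -0.72. At chr6:52171609-52171968 it was 39.6 and 48.8, a log2 ratio of 0.30. The median ratio of all 12197 matched autosomal peaks was -0.47, so the HoxA peaks lay on either side of it and only the HoxC peak was over 2-fold lower, as were 19.1% of matched autosomal peaks. None of the 3 was over 2-fold higher (0.951%).

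**Figure D3:**
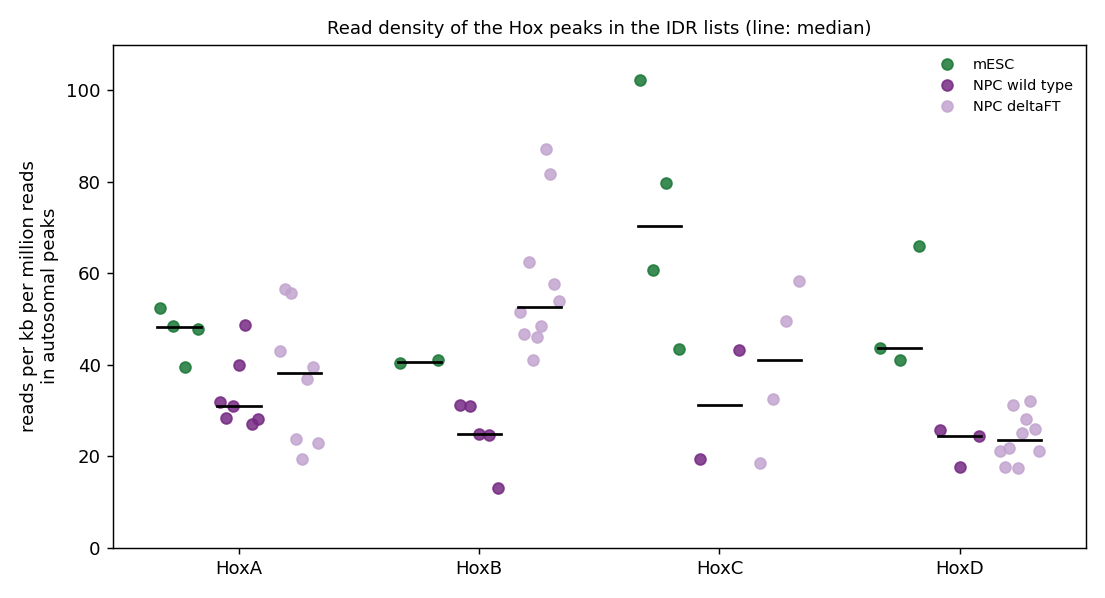
Read density of each Hox peak in the 3 IDR lists (vertical axis, reads per kb per 1000000 reads in autosomal peaks) by cluster (horizontal axis). Points are peaks and lines are medians. The mESC peaks of HoxC reach 102, and the deltaFT peaks of HoxB lie above the wild-type NPC peaks of HoxB.

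The mESC Hox peaks recurred in the male stem cells, a different line and sex. All 13 overlapped a peak of TXY WT without dox (background without overlap 3.62%) and with dox (6.03%). In TXY deltaRepA, 1 of the 13 had no partner without dox (4.95%) and 1 with dox (4.46%). When the deltaRepA peaks had to reach an authors' −log10 q of 5, 46.2% of the mESC Hox peaks were found without dox (autosomes 80.2%) and 61.5% with dox (81.8%). Many NPC Hox peaks overlapped male stem cell peaks as well. Of the 17 wild-type NPC peaks, 2 had no partner in TXY WT without dox, against 41.2% of autosomal NPC peaks, and 2 had none with dox (44.4%). In TXY deltaRepA, 6 had none without dox (46.6%) and 10 had none with dox (45.4%). Of the 32 deltaFT peaks, 5 had none in TXY WT without dox (34.6%) and 2 with dox (38%), while 13 had none in TXY deltaRepA without dox (40.8%) and 14 with dox (39.7%). The long male lists make overlap more likely, also for weak peaks.

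The next comparison set deltaFT NPC against wild-type NPC. Each genotype was a single line, so a difference between lines and one of the deltaFT genotype cannot be told apart. DeltaFT NPC had more Hox peaks than wild type, and 22 of its 32 had no overlapping wild-type IDR peak, against 27.8% of all autosomal deltaFT peaks. Of the 17 wild-type peaks, 7 had no deltaFT peak, against 34% over the autosomes. The share of deltaFT Hox peaks found in wild type was 31.2% (16.1% to 50.0%), below the autosomal 72.2%. Most of the unmatched peaks had a peak in a wild-type library list that did not reach the IDR list. With those lists included, 7 deltaFT peaks (background 5.53%) and 4 wild-type peaks (background 10.6%) had no partner. Between the first libraries, 45.5% of deltaFT Hox peaks were found in wild type, against 61.1% of autosomal peaks of equal strength. Between the second libraries it was 51.6% against 70.7%. In reverse, 67.4% and 61.1% of wild-type Hox peaks were found, against 59.4% and 47.4%. Between the libraries of the same line, 71.2% and 75.8% of Hox peaks were found again in deltaFT, and 76.7% and 59.3% in wild type.

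The library lists gave the same direction in peak numbers. HoxB held 21 and 21 peaks in the deltaFT libraries and 13 and 17 in the wild-type ones, HoxC 14 and 10 against 6 and 8, and HoxD 16 and 16 against 11 and 12. HoxA did not differ, with 15 and 15 against 13 and 17. In 3 of the 4 windows, therefore, both deltaFT libraries exceeded both wild-type ones. That was so in 9.82% of 7258 autosomal intervals of 150 kb, and the opposite order was found in 25.8% of them and in 0 of the Hox windows. Only intervals with at least 20 peaks over the lists compared were counted, and the windows are 130 to 200 kb long.

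The 7 deltaFT peaks without any wild-type partner were led by HoxB. The peak chr11:96205293-96205838, 166 kb from the group 13 edge, had 484 reads, the most of any Hox peak in the female lists. Both deltaFT libraries held it, with an authors' fold of 7.53 and 7.29 over local background, and no mESC or wild-type NPC list did. In the male cells it overlapped a peak in TXY WT with dox alone. Close to it, chr11:96207894-96208085 had 120 reads and chr11:96213142-96213456 had 184. The remaining 4 had 40 to 79 reads, 2 in HoxA and 2 in HoxD. The HoxB wild-type peak at chr11:96203161-96203624, 163 kb from the edge, had 65 reads and no deltaFT partner. Its read density was the lowest of the wild-type Hox peaks. The deltaFT libraries each had a peak close to it without overlap, at chr11:96202451-96202550 and chr11:96202437-96202622. Peak calls at the group 1 side of HoxB thus differed in both directions between the 2 lines. The deltaFT reads at the wild-type peak were not counted, so whether deltaFT was lower there was not tested.

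At 10 peaks matched between the NPC lines the median log2 read density ratio of deltaFT over wild type was 0.49 (range -0.30 to 1.83), where the median of 25334 matched autosomal peaks was -0.00. The highest was chr11:96179804-96180057 in HoxB, where wild type had 67 reads and deltaFT had 192, a log2 ratio of 1.83. It was the 1 Hox peak over 2-fold higher, as were 2.04% of the matched autosomal peaks, and 0 were over 2-fold lower (3.87%). The other HoxB peaks had ratios of 0.72 and 0.60. In HoxA the anterior peaks at chr6:52108289-52108549 and chr6:52108805-52109071 had 0.83 and 0.98, while the central peak at chr6:52171661-52172184 had -0.30, where wild type had 274 reads and deltaFT had 111. The HoxA peak nearest group 13 also had -0.30.

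The surroundings of HoxB differed between the NPC lines too. Within 2 Mb on either side of the HoxB window, outside it, deltaFT NPC held 50.8 peaks per 10000 autosomal peaks and wild-type NPC 20.9. The reads there were 4215 and 1800 per 1000000. In mESC the same flanks held 43.6 peaks per 10000 and 3365.5 reads per 1000000, so wild-type NPC was the low list there. The 70 matched peaks of these flanks had a median log2 ratio of 0.65, close to the 0.72 of the 3 matched HoxB peaks. Around HoxD the flanks held 16.7 peaks per 10000 in deltaFT, 9.07 in wild type and 17.8 in mESC. The median ratio of deltaFT over wild type was 0.42 at 29 matched peaks. The flanks of HoxA held 17.5 in deltaFT and 10.6 in wild type, and those of HoxC 31.9 and 25.9, with median ratios of 0.17 and -0.03. In mESC the flanks of HoxA and HoxC held 13.1 and 25.8. A difference of the HoxB genes and one of the surrounding chromosome therefore cannot be told apart here. Without HoxB, the other 3 windows held 6.11 peaks per 10000 (3.83 to 9.24) in deltaFT and 3.02 (1.56 to 5.28) in wild type. In mESC they held 3.99 (1.99 to 7.15). The median ratio of deltaFT over wild type at the 7 matched peaks of these windows was 0.27.

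The allelic reads of HoxB were uneven in deltaFT NPC. The IDR lists give the reads of each allele without strain names, so shares are given for the allele whose column comes first. Over the 7 HoxB peaks of deltaFT NPC with at least 10 allelic reads, 220 of 650 allelic reads, or 33.8% (30.2% to 37.6%), were of the first-listed allele. All 7 peaks lay under 50%, from 28.6% at chr11:96172971-96173402 to 44.7% at chr11:96213142-96213456. Wild-type NPC had a HoxB share of 42.3% (32.3% to 52.7%), and mESC one of 43.1% (33.7% to 53.0%). Both of these intervals overlap that of deltaFT NPC.

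The whole region shared this imbalance. In the 2 Mb flanks of HoxB, 33.7% (33.0% to 34.5%) of 15865 allelic reads in deltaFT NPC were of the first-listed allele, with 124 of 146 peaks under 50%. The flanks gave 54.2% in wild-type NPC and 51.6% in mESC. Along chromosome 11 of deltaFT NPC, the share was 48.9% in the interval from 70 to 80 Mb, 35.0% from 80 to 90 Mb, 33.8% from 90 to 100 Mb and 47.8% from 100 to 110 Mb. The reads in peaks of these intervals were 5418, 7708, 7225 and 7159 per 1000000 in deltaFT and 4215, 4268, 3929 and 4609 in wild type. In mESC they were 6105, 4384, 5248 and 8112, above deltaFT in the first and last of these intervals and below it in the others. The low first-listed share thus covered about the intervals from 80 to 100 Mb, in which HoxB lies, and was not particular to the Hox peaks. The number of copies of this region was not measured here, and its part in the HoxB peak counts, read densities and allelic shares was not tested.

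**Figure D4:**
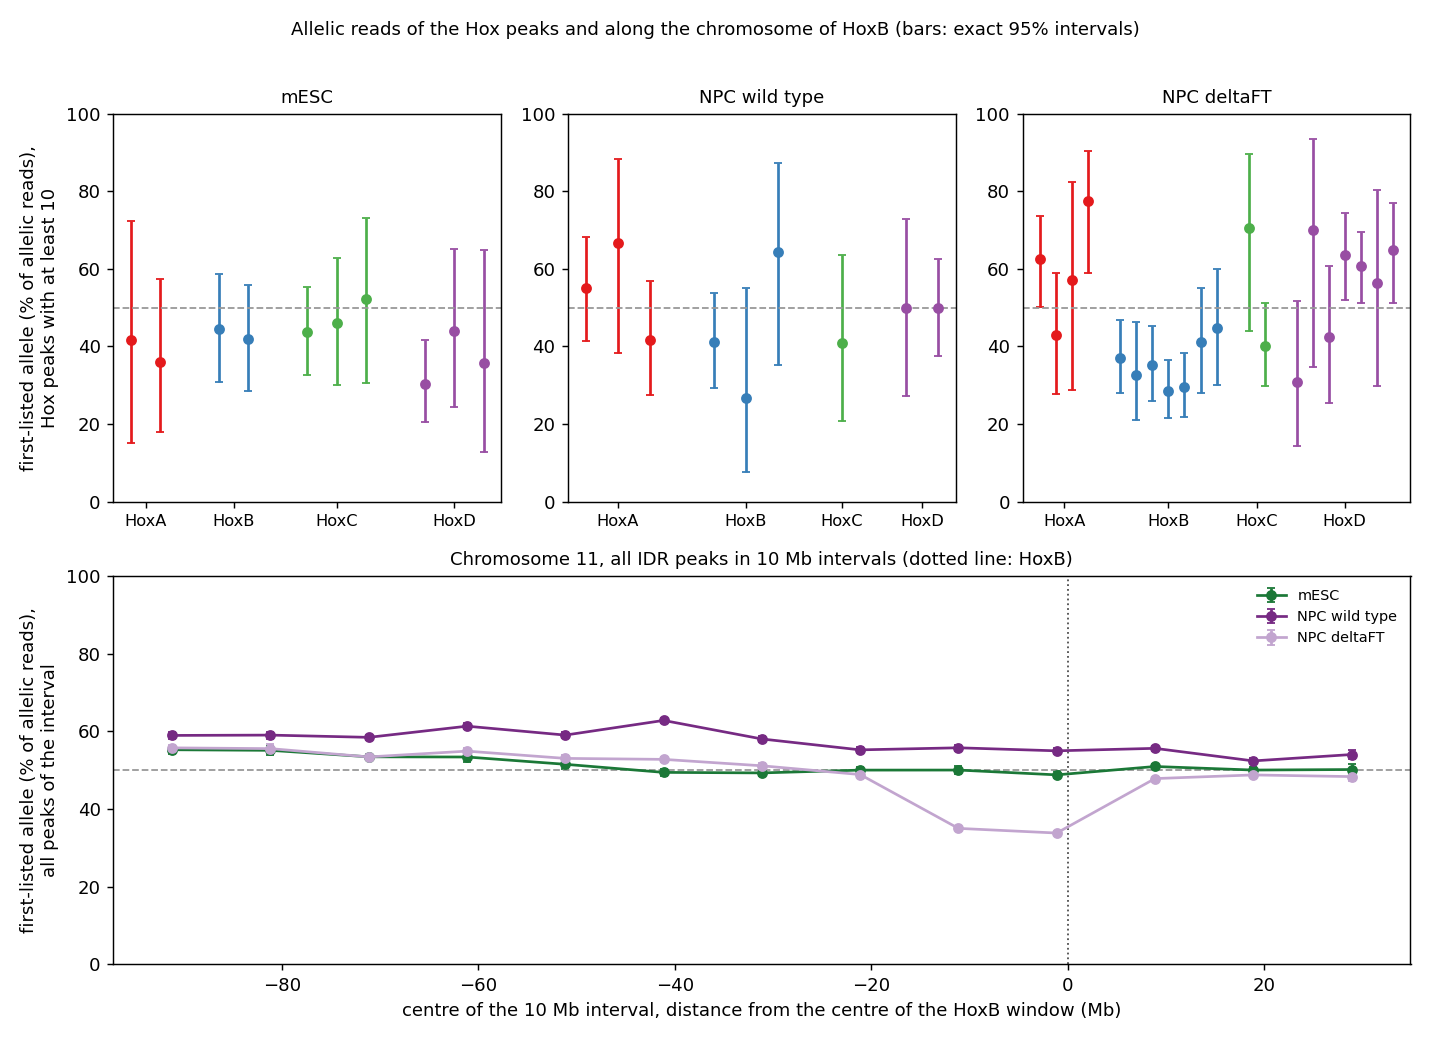
Top, share of the first-listed allele (vertical axis, percent of allelic reads) at each Hox peak with at least 10 allelic reads, ordered by distance from the group 13 edge within each cluster. Bottom, the same share over all IDR peaks in 10 Mb intervals of chromosome 11, by distance in Mb from HoxB. Bars are exact 95% intervals. The 7 HoxB peaks of deltaFT NPC lie under 50%, as do the intervals around HoxB in that line, at 35.0% and 33.8%.

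In 3 other cases the interval of a cluster's share left out 50%. HoxD of deltaFT NPC had a first-listed share of 58.0% (52.6% to 63.4%) over 7 peaks, 5 of them over 50%, while its flanks had 47.9% (46.7% to 49.1%). HoxA of deltaFT NPC had 59.7% (51.7% to 67.4%) over 4 peaks, with 50.9% in its flanks. These peaks ranged from 42.9% (27.7% to 59.0%) to 77.4% (58.9% to 90.4%). HoxD of mESC had 33.9% (25.4% to 43.2%) over 3 peaks, all under 50%, with 50.2% in its flanks. There, chr2:74493612-74494094 alone held 79 of the 118 allelic reads, 24 of them first-listed. The intervals of the other peaks, 24.4% to 65.1% and 12.8% to 64.9%, hold 50%. The cluster intervals pool reads over peaks, and every cluster was looked at in every list. Pooled over the 4 clusters the share was 40.9% in mESC (36.1% to 45.8%), 47.5% in wild-type NPC (42.0% to 53.1%) and 44.6% in deltaFT NPC (41.8% to 47.4%). Without HoxB the deltaFT share was 56.3%. No Hox peak had an interval wholly outside 30% to 70%, as 3.83%, 4.03% and 3.35% of the autosomal peaks did in the 3 lists.

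Many Hox peaks could not be read by allele. Allelic reads made up 25.5% of the Hox reads in mESC, 18.4% in wild-type NPC and 27.0% in deltaFT NPC, against 40.1%, 38.8% and 40.7% over the autosomes. Among peaks with at least 50 reads, 2 of 13 in mESC (background 6.73%), 5 of 16 in wild-type NPC (6.95%) and 6 of 28 in deltaFT NPC (6.16%) had no allelic read at all. The anterior HoxA site was among them in all 3 lines, with 0 allelic reads of 245 in mESC and at most 1 in any of its NPC peaks. How many sites that differ between the strains these peaks hold was not examined here.

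The last comparison asked how the male stem cells differ by Xist genotype and by dox. Hox sites differed by genotype and in 1 direction. Of 140 Hox sites in any male list, 30 were in both WT lists and in neither deltaRepA list (21.4%), where 4.17% of the 239400 autosomal sites were. In the reverse pattern there were 0, where 4.35% of autosomal sites were found. Another 35 (25%) were in all 4 lists, close to the autosomal 25.8%. Sites in both no-dox lists and no plus-dox list numbered 1 (background 2.36%), and the reverse 2 (background 1.8%).

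HoxA and HoxB held most of the sites found in WT alone. They numbered 11 of 33 sites in HoxA (33.3%), 12 of 44 in HoxB (27.3%), 4 of 29 in HoxC (13.8%) and 3 of 34 in HoxD (8.82%). In the 2 Mb flanks the same pattern was found for 5.05% of sites around HoxA, 11.1% around HoxB, 8.23% around HoxC and 6.15% around HoxD. The pattern was therefore more frequent inside each window than beside it, with the widest gap in HoxA, and in HoxC and HoxD by few sites. Peak numbers followed: the HoxA flanks held 10.3 peaks per 10000 in WT and 10.2 in deltaRepA without dox, while the window held 27 and 11 peaks. The HoxB flanks differed too, with 30.3 and 21.4 per 10000, and the window held 40 and 15. At least 1.5 times as many WT as deltaRepA peaks in both treatments were found in the HoxA and HoxB windows, 2 of 4, and in 4.6% of 11604 autosomal intervals of 150 kb. The reverse was found in 0 of 4 windows and in 6.7% of the intervals. Here too the intervals counted were those with at least 20 peaks over the lists compared.

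**Figure D5:**
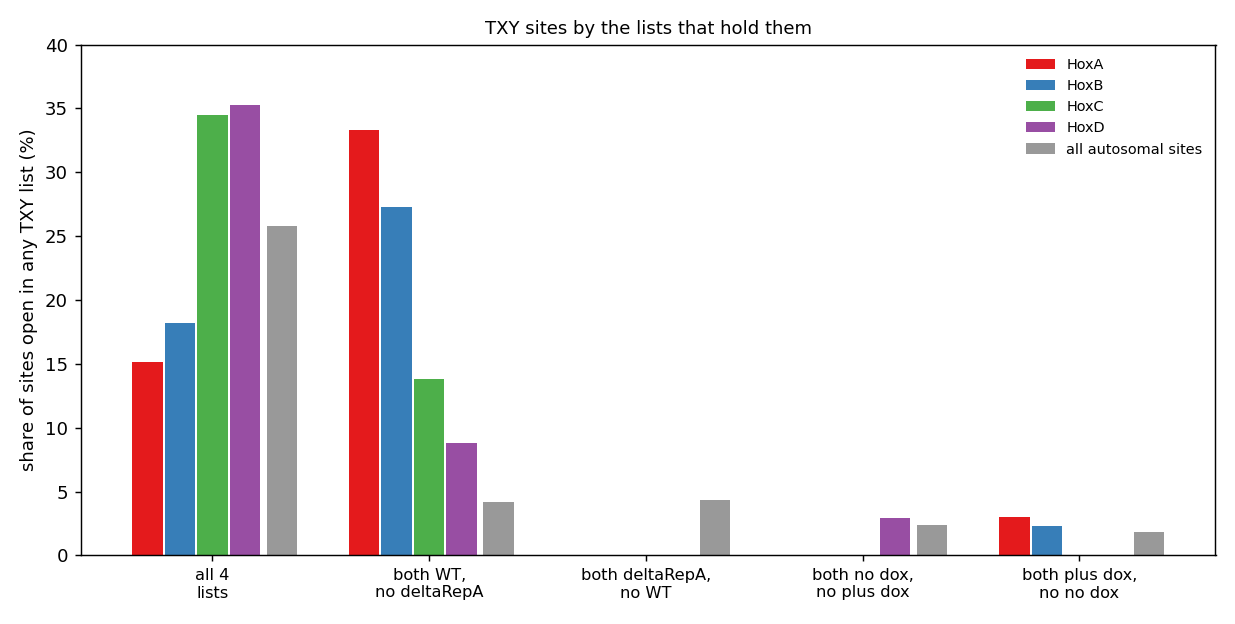
Share of sites open in any male list (vertical axis, percent) by the lists that hold them (horizontal axis). Coloured bars are the 4 clusters and grey bars all autosomal sites. The bars for sites in both WT lists and no deltaRepA list reach 33.3% in HoxA and 27.3% in HoxB, against 4.17% over the autosomes.

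The sites found in WT alone were weak. In TXY WT without dox their authors' −log10 p had a median of 5.01 (range 2.90 to 10.9), under the autosomal median of 6.23, whereas the Hox sites in all 4 lists had a median of 9.58. With dox it was 5.29 (2.76 to 9.54) against an autosomal median of 5.58 and 11.4 for sites in all 4 lists. When each WT peak had to reach an authors' −log10 q of 5, 1 such site was left (background 0.248%). When that was asked of every list, 16 such sites were found (background 6.75%). The Hox sites in any male list were not counted under these filters, so no Hox share can be set against these backgrounds. Whether the pattern stayed above background under the filters was therefore not tested. Among the sites found in WT alone, the strongest in WT without dox was chr11:96202805-96203624 in HoxB, with an authors' −log10 p of 10.9. It holds the wild-type NPC peak with 65 reads described above. The next was chr11:96146581-96146992, at 10.2, which overlaps a deltaFT peak with 238 reads. Of the 30 sites, 1 had a mESC peak, 4 a wild-type NPC peak and 5 a deltaFT NPC peak, and 10 lay on the group 13 side of the midpoint.

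Single lists gave the same order. Without dox, 72 of 127 WT Hox peaks had no deltaRepA peak (background 39.6%), and 9 of 65 deltaRepA Hox peaks had no WT peak (33.8%). With dox the counts were 57 of 107 (36.6%) and 8 of 60 (43.2%). All 15 HoxB peaks of deltaRepA without dox were found in WT without dox, while 14 of the 40 WT peaks were found in deltaRepA. The deltaRepA Hox peaks were thus largely a subset of the WT ones. WT and deltaRepA cells are separate lines, so a difference between lines and one of the Xist genotype cannot be told apart, and no list had a replicate.

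Dox left most WT Hox peaks in place. Of 127 WT peaks without dox, 31 had no peak with dox (background 37.9%), so that 75.6% (67.2% to 82.8%) were kept, against 62.1% of autosomal peaks and 59.8% of autosomal peaks of equal strength. Of 107 peaks with dox, 12 had none without (30.6%). HoxC kept most, 25 of 29, and HoxD fewest, 20 of 31. In deltaRepA, 29 of 65 peaks had no peak with dox (31.3%), so that 55.4% (42.5% to 67.7%) were kept, against 68.7% of autosomal peaks and 63.0% of those of equal strength. Of 60 peaks with dox, 24 had none without (37.2%). At a −log10 q of at least 5 in both lists, 32 of 48 WT Hox peaks (66.7%, autosomes 65.5%) and 10 of 12 deltaRepA Hox peaks (83.3%, autosomes 79.7%) were kept. Both shares then lay close to the autosomal share of their own list, so the departures from it in opposite directions were not kept under that filter.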

How the data were processed

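ATAC-seq peak lists of 7 samples, 1 per group, were used. The build (mm9) and the tools (cutadapt, Bowtie2, MACS2) are named per the submitters' processing notes. Not given in the sources used here are the settings, the treatment of duplicate reads, any shift for Tn5, and whether read counts come from 1 library or both. An IDR list was deposited by the authors per female line, with a read count for each peak and for each allele. The authors also deposited 1 list per library, and for each male condition 1 list of merged libraries. In these lists the authors' MACS2 values are deposited, the fold (a ratio) over local background and the −log10 p and q of each peak. Within 1 list they served for ranks, filters and matching by strength. Peak width was taken from the deposited start and end.

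Autosomal peaks lying in the windows were taken. Peaks were shared where they overlapped by at least 1 bp, and overlapping peaks of the 7 lists were joined into sites. Matched peaks were those of largest overlap. A read density ratio was called past 2-fold. Shares at equal strength weighted autosomal peaks to the Hox peaks in 10 bins of −log10 p. Tables were made with pandas 2.3.3, scipy 1.17.1 and numpy 2.4.6 in python 3.11.15, figures with matplotlib 3.10.9. In tests on simulated data, Hox peaks were made to differ by -25 points in their share kept. They were measured at -24.4 points in the list of 137409 TXY WT peaks without dox and at -24.9 points in that of 126517 deltaRepA peaks. The simulated peaks were kept by the same −log10 p that the weighting used, so this checks the calculation only. Among the 25334 peaks matched between the NPC lines, a simulated log2 ratio of 2 was set at a small random part. Its median was recovered as 1.90, and that of the peaks left unchanged, with a simulated ratio of 0, as -0.11.

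Named peaks were, per cluster and list, the 2 with most reads (IDR) or the highest q (male), peaks in all 7 lists, and the 10 largest read density ratios. Peaks without a partner, sites in 6 lists, peaks nearest an edge, the extremes of the HoxB allelic shares and the strongest sites found in WT alone were chosen after their values were seen. The members and lists were chosen with earlier results of these data known. The genotype patterns of sites, the flanks and the chromosome 11 intervals were added after seeing the data.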

Additional observations from a re-analysis of the deposited data

Results flagged for a closer look

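The share of Hox peaks kept with dox differed from the autosomal share in opposite directions in the 2 male genotypes: it was 13.5 points above it in TXY WT and -13.3 points from it in TXY deltaRepA. The difference between the genotypes was not tested, since each list is 1 sample. Set against autosomal peaks of equal strength, the values were 15.8 and -7.66 points. Among peaks with an authors' −log10 q of at least 5 in both lists, 66.7% of the WT Hox peaks (autosomes 65.5%) and 83.3% of the deltaRepA Hox peaks (autosomes 79.7%) were kept, which is 1.18 and 3.67 points above the autosomal share. The opposite directions were therefore not found under that filter, which left 48 and 12 Hox peaks.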

How the results depend on the processing

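Of 104 alternatives to 26 results, 92 stayed within the counting interval or within 1.5 times the count, 11 moved and 1 reversed. With library 2 lists, 51.6% of deltaFT Hox peaks were found in wild-type NPC (autosomes 77.7%). With library 1 lists, 46.3% of mESC Hox peaks were found in wild-type NPC (autosomes 36.2%), inside the wide counting interval but on the other side of the background. With male peaks of −log10 q of at least 5, 46.2% and 61.5% of mESC Hox peaks were found in deltaRepA without and with dox (autosomes 80.2% and 81.8%), and the kept shares were 66.7% in WT (65.5%) and 83.3% in deltaRepA (79.7%). The kept share minus the autosomal one was then 1.18 points in WT and 3.67 in deltaRepA, where it reversed, and the density of deltaRepA without dox was 2.67 per 10000. The median log2 ratio of wild-type NPC over mESC, from 3 peaks, was -2.26 without division by width. Without HoxB, an alternative chosen after seeing the data, the deltaFT allelic share was 56.3%. The sites in WT alone numbered 1 or 16 under the stricter filters, also chosen after seeing the data. The causes were not tested. No paired analysis was possible because each group has 1 sample and the results come from no test.

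Limits are the single sample per group, the few peaks per window in the female lists (2 to 10), the unknown depth of the male lists and the missing mm9 annotation, so that peaks carry positions and no gene names.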
